A study of Rattus norvegicus with 18 samples.

Results

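The genes described here encode enzymes of the citric acid cycle, of ketone body use and of branched-chain amino acid catabolism, followed across 5 regions of the healthy rat heart. The list named 29 enzymes, of which 28 were found by gene name among the 32883 genes of the deposited table. Ogdh, which encodes the first component of the oxoglutarate dehydrogenase complex, matched no name there and is not analysed here. The members were taken as listed, by gene name, and the list was drawn up with earlier results of these data known. By role, 12 belong to the cycle and 3 to ketone body use. A further 4 catalyze the shared steps of branched-chain amino acid breakdown, 4 the leucine branch and 5 the propionyl-CoA and valine branch. Healthy male Sprague Dawley rats gave RNA of the left ventricle (LV, n = 2), left atrium (LA, n = 4), superior sinoatrial node (sSAN, n = 4), inferior sinoatrial node (iSAN, n = 4) and right atrium (RA, n = 4), sequenced as 18 libraries in all. The animals were 59 days old (rats 1 and 2) or 70 days old (rats 3 and 4), where a rat is the set of libraries whose titles share an ending. The LV libraries came from rats 3 and 4 only. Each library held the RNA of a dissected piece of tissue, so that fewer cells of a type and less RNA per cell cannot be told apart.

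The citric acid cycle burns acetyl-CoA in the mitochondrial matrix and hands its electrons to the respiratory chain, which makes most of the ATP of a beating heart. Ketone bodies and the branched-chain amino acids leucine, isoleucine and valine feed the same cycle. Ketone bodies enter as acetyl-CoA, whereas the amino acids are first transaminated, then decarboxylated by a dehydrogenase complex, and end as acetyl-CoA, acetoacetate or succinyl-CoA. Working ventricular muscle is rich in mitochondria, and brown adipocytes, which burn fuel for heat, are as well.

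Library totals ran between 17334954 and 24252103 counts. The mitochondrial genome took 35.0% to 35.4% of the counts in LV, 18.6% to 20.5% in LA, 24.1% to 40.8% in sSAN, 19.1% to 28.0% in iSAN and 16.4% to 18.8% in RA. Levels are given as CPM, counts scaled to a common library size, after trimmed-mean (TMM) scaling of all 18 libraries. With library totals alone, all genes tested had a median log2 fold change of -0.57 for LV over RA, against -0.03 with TMM scaling, and changes are read here against the TMM scale. The summed CPM of 4 ventricular myocyte markers was 11309 to 14097 in LV and 253 to 396 in RA, and that of 5 atrial myocyte markers was 385 to 485 in LV and 46605 to 54172 in RA. The 6 pacemaker markers summed to 112 to 247 CPM in sSAN, 126 to 161 CPM in iSAN and 43.6 to 52.8 CPM in RA. All 8 adipocyte markers were found, and their sum was 1372 to 6292 CPM in sSAN, 330 to 3835 CPM in iSAN and 207 to 268 CPM in RA. It was 233 to 337 CPM in LA and 651 to 723 CPM in LV. Most of the LV sum was Fabp4, at 594 to 660 CPM, while Adipoq was at 0.406 CPM or less there.

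Promoter sequences, running from 250 bases before to 50 bases after each gene start in the RefSeq annotation of build GRCr8, were matched for 25 of the 28 members, all but Idh3a, Bckdha and Mccc2. Those of Bdh1, whose level differed most between regions, of Sucla2 and Suclg2, which encode alternative subunits of succinyl-CoA synthetase, and of Idh2 and Idh3b, from the 2 kinds of mitochondrial isocitrate dehydrogenase, are shown because these genes diverged between regions. Sequences read 5′ to 3′ along the gene. Capitals mark, on either strand, the SP1 element GGGCGG, the GABP element CCGGAAG and the YY1 element AAGATGGCG, or their reverse complements.
Bdh1 (chr11:82842587-82842886, minus strand): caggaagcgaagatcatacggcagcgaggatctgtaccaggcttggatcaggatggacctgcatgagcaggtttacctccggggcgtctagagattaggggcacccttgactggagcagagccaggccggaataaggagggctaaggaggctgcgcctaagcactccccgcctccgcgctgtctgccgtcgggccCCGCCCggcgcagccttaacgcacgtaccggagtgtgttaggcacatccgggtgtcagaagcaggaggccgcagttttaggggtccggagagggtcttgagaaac
Sucla2 (chr15:55161644-55161943, plus strand): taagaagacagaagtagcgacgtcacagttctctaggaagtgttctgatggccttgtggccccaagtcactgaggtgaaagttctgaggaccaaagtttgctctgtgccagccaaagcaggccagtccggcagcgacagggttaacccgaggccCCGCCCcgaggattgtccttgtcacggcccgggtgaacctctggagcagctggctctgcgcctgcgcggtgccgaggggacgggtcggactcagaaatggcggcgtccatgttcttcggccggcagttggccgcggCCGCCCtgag
Suclg2 (chr4:129893888-129894187, minus strand): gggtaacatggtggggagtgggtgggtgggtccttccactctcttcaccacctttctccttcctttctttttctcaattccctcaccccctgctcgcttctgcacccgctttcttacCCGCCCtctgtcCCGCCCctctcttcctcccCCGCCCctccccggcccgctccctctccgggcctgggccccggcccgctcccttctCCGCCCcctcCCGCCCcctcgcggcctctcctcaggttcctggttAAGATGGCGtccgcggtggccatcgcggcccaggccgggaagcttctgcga
Idh2 (chr1:143467199-143467498, minus strand): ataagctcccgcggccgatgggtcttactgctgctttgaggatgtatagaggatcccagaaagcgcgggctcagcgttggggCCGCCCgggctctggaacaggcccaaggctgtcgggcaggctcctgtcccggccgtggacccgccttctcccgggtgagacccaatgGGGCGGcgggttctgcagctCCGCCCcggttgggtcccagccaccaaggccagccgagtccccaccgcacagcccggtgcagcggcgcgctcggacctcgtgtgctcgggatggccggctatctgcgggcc
Idh3b (chr3:137939941-137940240, minus strand): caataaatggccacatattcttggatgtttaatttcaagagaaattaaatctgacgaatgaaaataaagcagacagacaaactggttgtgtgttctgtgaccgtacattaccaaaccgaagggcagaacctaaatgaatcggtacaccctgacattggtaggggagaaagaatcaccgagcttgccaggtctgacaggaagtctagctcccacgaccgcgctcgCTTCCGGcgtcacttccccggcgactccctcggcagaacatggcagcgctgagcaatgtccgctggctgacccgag
GGGCGG stood in 18 of the 25 member promoters (72.0%), against 33.1% of all 33469 promoters in the annotation. CCGGAAG was found in 4 (16%), those of Idh3b, Idh3g, Dlst and Mdh2, against 8.75% of all promoters, and AAGATGGCG in 2 (8%), those of Idh3g and Suclg2, against 1.73%. The element AAGGTCA, bound by estrogen-related receptors, was in 0 of the 25 windows and in 4.61% of all promoters. Its longer form TNAAGGTCA, which contains the shorter one, was in 0 of the 25 and in 1.20% of all. The median GC content was 62.3% in the member promoters and 51.7% in all promoters. These matches describe the letters in the windows.

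On the deposited FPKM scale, which corrects for gene length and not for TMM, the malate dehydrogenases and Idh2 were the most abundant members. Idh2, the NADP-dependent mitochondrial isocitrate dehydrogenase, averaged 1525 ± 96.8 (SD, n = 2) FPKM in LV and 869 ± 31.1 (SD, n = 4) FPKM in RA. Mdh1, the cytosolic malate dehydrogenase of the malate-aspartate shuttle, averaged 1188 ± 25.6 (SD, n = 2) FPKM in LV and 1064 ± 34.2 (SD, n = 4) FPKM in RA. Its mitochondrial counterpart Mdh2 had rank 3 by mean FPKM in all 5 regions. For Idh2 the count over gene length and library total was 0.84 of the deposited FPKM, so its rank holds for the deposited values only. Oxct1, which activates acetoacetate and commits ketone bodies to oxidation, had rank 5 in sSAN and rank 4 in the other regions. Bdh1, which interconverts beta-hydroxybutyrate and acetoacetate, was the lowest of the 28 in LA, sSAN, iSAN and RA and had rank 26 in LV.

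LV had the highest mean CPM of the 5 regions for all members except Idh3a, Sucla2 and Pccb, which were highest in sSAN. The comparisons against RA share the RA libraries, and those of LV or LA share the LV or LA libraries. Over RA, 27 of the 28 members were higher in LV and 0 were lower (edgeR quasi-likelihood test, Benjamini-Hochberg adjusted p under 0.05), where 23.5% of all genes tested were higher and 22.7% lower. DESeq2 also called 27 higher and 0 lower (20.4% and 18.4% of all genes), and no member was lower at an unadjusted p under 0.05. The median log2 fold change was 1.08 over the members and -0.03 over all genes. All 12 cycle enzymes were higher, with a median log2 fold change of 1.06, as were the 3 ketone enzymes, the 4 shared branched-chain enzymes (median 1.47), the 5 propionyl and valine enzymes (median 1.08) and 3 of 4 leucine enzymes. The exception was Mccc1, the biotin-carrying subunit of methylcrotonyl-CoA carboxylase, at 111 and 117 CPM in LV and 92.0, 92.2, 102 and 106 CPM in RA (log2 fold change 0.22 ± 0.08 SE, adjusted p = 0.0547).

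**Figure D1:**
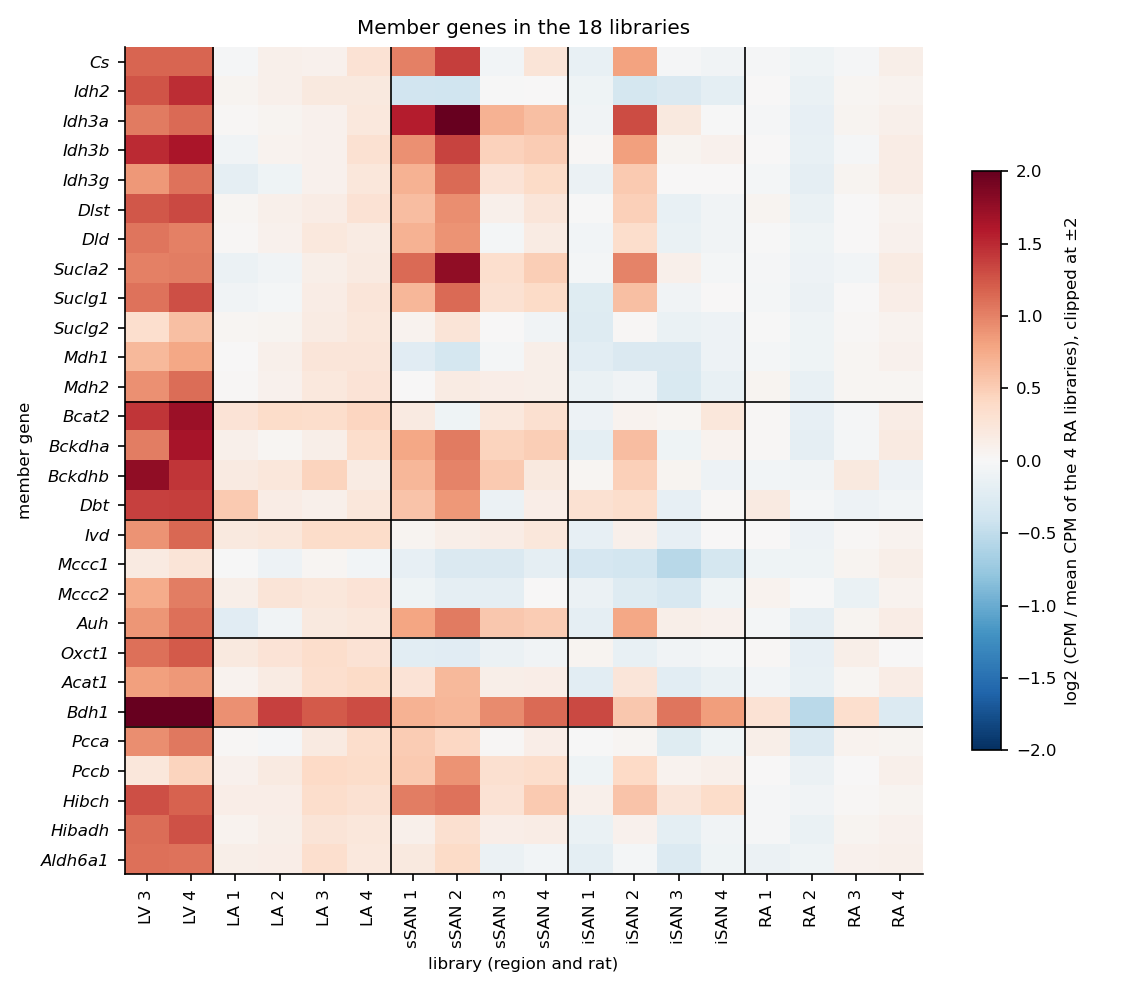
Levels of the 28 members (rows, grouped by role: cycle, shared branched-chain steps, leucine branch, ketone bodies, propionyl and valine branch) in the 18 libraries (columns, by region and rat), as log2 of CPM over the mean of the 4 RA libraries, with colors clipped at ±2. The LV columns are red for nearly all members, and the sSAN libraries of rats 1 and 2 and the iSAN library of rat 2 are red for a subset that includes Cs, Idh3a and Sucla2.

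Cs, the citrate synthase that opens the cycle, had 909 and 909.7 CPM in LV, against 398, 381, 399 and 440.4 CPM in RA. Both LV libraries were above every RA library (log2 fold change 1.16 ± 0.08 SE, adjusted p = 1.14e-06). Idh3b, a regulatory subunit of the NAD-dependent isocitrate dehydrogenase, had 618 and 684 CPM in LV and 222, 199, 216 and 243 CPM in RA. The ranges lay far apart (log2 fold change 1.56 ± 0.09 SE, adjusted p = 2.97e-07). Bcat2, the mitochondrial aminotransferase that starts branched-chain breakdown, had 149.97 and 183 CPM in LV and 56.9, 49.8, 54.9 and 61.7 CPM in RA. The lower LV library was far above the highest RA library, and only Bdh1 and Bckdhb had larger fold changes (log2 fold change 1.57 ± 0.10 SE, adjusted p = 7.29e-07). Dbt, the acyltransferase core of the branched-chain dehydrogenase complex, had 213 and 214 CPM in LV and 93.2, 80.4, 76.7 and 79.9 CPM in RA (log2 fold change 1.37 ± 0.09 SE, adjusted p = 7.42e-07). Hibch, which releases hydroxyisobutyrate from its CoA ester in valine breakdown, had 94.7 and 87.8 CPM in LV and 38.0, 37.1, 39.6 and 40.5 CPM in RA (log2 fold change 1.23 ± 0.07 SE, adjusted p = 4.89e-07). For both genes each LV library lay above all RA libraries.

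The other members of the cycle and of the valine branch included several with LV ranges apart from RA. Here and in the other comparisons the share of all genes with ranges apart was not counted, so non-overlap only describes the genes named. Dlst, the succinyltransferase core of the oxoglutarate dehydrogenase complex, had 1069 and 1139 CPM in LV and 471, 413, 458 and 475 CPM in RA (log2 fold change 1.27). Suclg1, the alpha subunit of succinyl-CoA synthetase, had 689 and 792 CPM in LV and 317, 299, 328 and 355 CPM in RA (log2 fold change 1.18). Mdh1, the cytosolic enzyme, had 2042 and 2239 CPM in LV and 1275, 1224, 1345 and 1379 CPM in RA (log2 fold change 0.71). For these 3 genes no LV library fell within the RA range. Hibadh, which oxidizes hydroxyisobutyrate, had 432 and 479.7 CPM in LV and 195, 182, 206 and 211 CPM in RA (log2 fold change 1.19). Aldh6a1, the methylmalonate semialdehyde dehydrogenase that follows it, had 925 and 918 CPM in LV and 399, 408, 460.4 and 465 CPM in RA (log2 fold change 1.08). Both LV libraries of each gene were above all RA libraries. Suclg2, the GTP-forming beta subunit, was also called, with a smaller change (log2 fold change 0.46 ± 0.09 SE, adjusted p = 0.00159).

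With genes of the mitochondrial genome left out, 27 members were called in LV over RA, where 23.4% of all genes were higher and 22.6% lower. Library totals called 9.53% of all genes higher and 57.9% lower. With library totals in place of TMM factors, an alternative chosen after seeing the data, 24 members were higher in LV and 2 were lower, Mccc1 (log2 fold change -0.33) and Pccb (-0.21), while Suclg2 (log2 fold change -0.09) and Mdh1 (0.16) were not called, and the median of the members was 0.54. LV also exceeded LA for 27 of 28 members, with 0 lower (edgeR, adjusted p under 0.05, 22.1% of all genes higher and 21.1% lower). DESeq2 and the unadjusted p likewise gave 0 members lower. The median log2 fold change was 0.96 over the members and -0.03 over all genes. The exception was Pccb, the beta subunit of propionyl-CoA carboxylase, with 140.0 and 162 CPM in LV and 127, 134, 157 and 154 CPM in LA, which overlapped (log2 fold change 0.08 ± 0.11 SE, adjusted p = 0.61) and differed by -0.05 with the rat as a block. Its partner subunit Pcca had 172 and 187 CPM in LV and 91.6, 89.0, 102 and 115 CPM in LA and did not overlap (log2 fold change 0.85 ± 0.11 SE, adjusted p = 1.00e-04). Idh3b had 209, 232, 232 and 271 CPM in LA, and LV was higher than this range in both libraries (log2 fold change 1.46 ± 0.10 SE, adjusted p = 2.10e-06). With the rat as a block Mccc1 and Suclg2 were not called. With library totals, 21 members were higher and 2, again Mccc1 and Pccb, lower in LV than in LA. That fit called 7.95% of all genes higher and 57.2% lower.

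Fewer members differed between the 2 atria. LA exceeded RA for 4 members and fell below it for 0 (edgeR, adjusted p under 0.05), where 4.37% of all genes were higher and 4.26% lower. The median log2 fold change was 0.15 over the members and 0.00 over all genes, and 27 of 28 members had a positive value. The 4 were Bdh1, Bcat2, Ivd and Oxct1, and none was a cycle enzyme. Bcat2 had 67.4, 71.9, 71.5 and 75.1 CPM in LA and 56.9, 49.8, 54.9 and 61.7 CPM in RA, without overlap (log2 fold change 0.35 ± 0.07 SE, adjusted p = 0.00757). Ivd, the isovaleryl-CoA dehydrogenase of leucine breakdown, had 296, 302, 332 and 331 CPM in LA and 259, 241, 261 and 271 CPM in RA, also without overlap (log2 fold change 0.28 ± 0.06 SE, adjusted p = 0.0117). Oxct1 had 1721, 1815, 1912 and 1835 CPM in LA and 1518, 1342, 1625 and 1508 CPM in RA, with all LA libraries above all RA libraries (log2 fold change 0.28 ± 0.07 SE, adjusted p = 0.0287). With the rat as a block, 13 members were higher in LA, the 4 above and Acat1, Hibch, Bckdhb, Dbt, Bckdha, Pccb, Mccc2, Aldh6a1 and Hibadh, and 0 were lower, where that fit called 8.97% of all genes higher and 8.95% lower. The smallest of these differences was that of Bckdha, the E1 alpha subunit of the branched-chain dehydrogenase, at a log2 fold change of 0.15. DESeq2 called 8 higher and 0 lower (5.1% and 5.29% of all genes), and no member was lower at an unadjusted p under 0.05. Oxct1 was not called without any 1 of the libraries of rats 1, 2 and 4 in RA or of rats 2, 3 and 4 in LA. In 59-day rats alone 0 members were called, with 2.21% of all genes higher, and in 70-day rats alone only Bdh1, with 1.38% of all genes higher, each from 2 libraries per region.

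**Figure D2:**
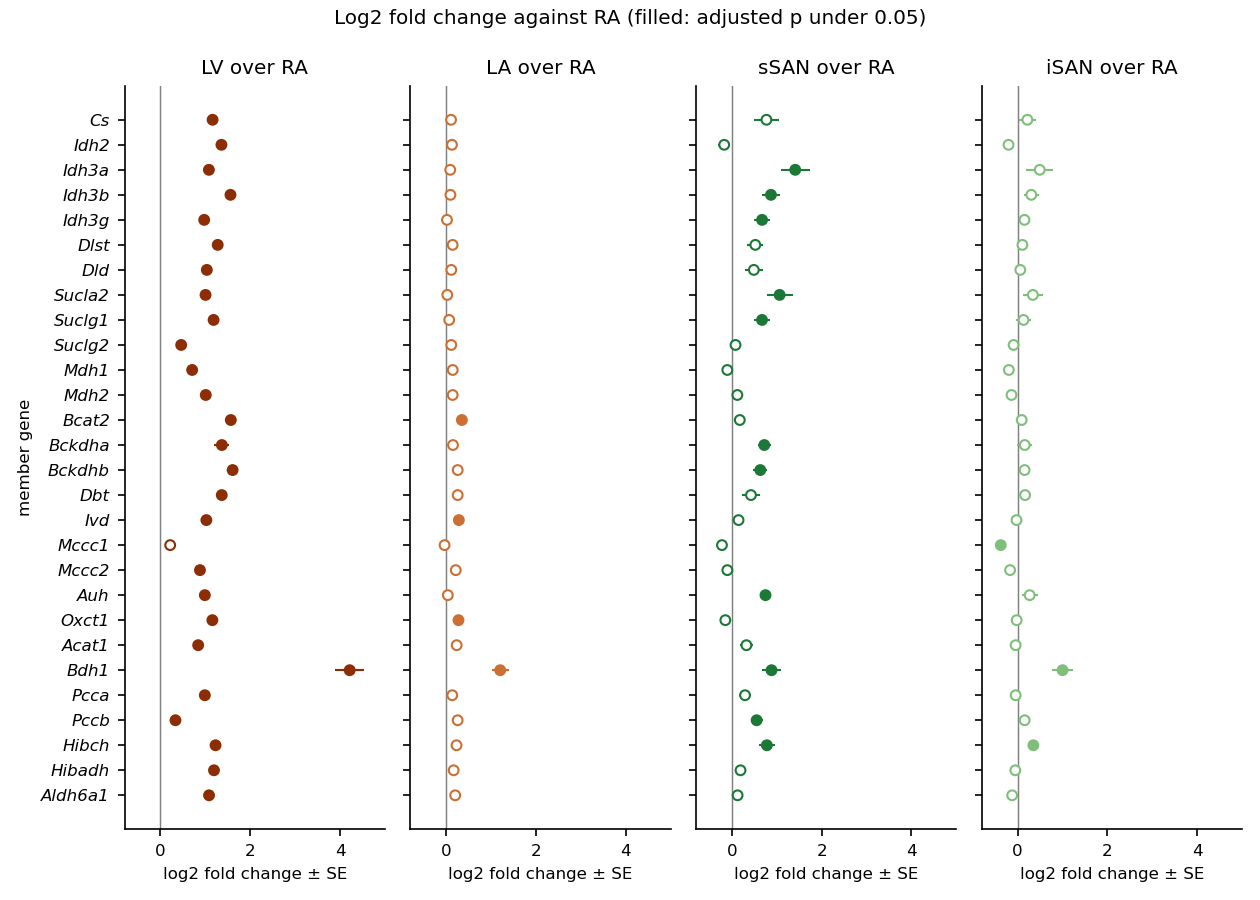
Log2 fold change of each member against RA in LV, LA, sSAN and iSAN, from left to right, with bars of ±1 SE from the edgeR fit. Filled points passed an adjusted p of 0.05. LV is shifted to the right for nearly all members, LA lies close to 0 apart from Bdh1 at 1.20, and sSAN splits into raised members such as Idh3a at 1.41 and members near 0 such as Idh2 at -0.17.

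Against the nodes, more members were higher in LV over iSAN (25) than over sSAN (14), but so were more of all genes (20.3% and 11.9%). With the rat as a block the counts were 28 and 27, and the difference between these counts was not tested. Over iSAN, 25 members were higher in LV and 0 lower (edgeR, adjusted p under 0.05, 20.3% of all genes higher and 18.8% lower, 0 members lower at an unadjusted p under 0.05). The smallest adjusted p belonged to Bcat2 (log2 fold change 1.52 ± 0.12 SE, adjusted p = 0.00013), Idh2 (log2 fold change 1.60 ± 0.14 SE, adjusted p = 0.000161) and Hibadh (log2 fold change 1.28 ± 0.11 SE, adjusted p = 0.000183). The 3 that were not called were Idh3a (log2 fold change 0.62 ± 0.41 SE, adjusted p = 0.279), Sucla2 (log2 fold change 0.70 ± 0.30 SE, adjusted p = 0.103) and Pccb (log2 fold change 0.22 ± 0.14 SE, adjusted p = 0.266). With the rat as a block all 28 were higher (24.1% of all genes), with Idh3a at 0.99, Sucla2 at 0.98 and Pccb at 0.25. With library totals 17 were higher and 1, Pccb, was lower at a log2 fold change of -0.38. That fit called 6.04% of all genes higher and 54.3% lower. Over sSAN, 14 members were higher in LV and 0 lower (edgeR, 11.9% of all genes higher and 10.8% lower, 0 members lower at an unadjusted p under 0.05 or by DESeq2). The 14 included Bdh1, Bcat2, Oxct1, Mccc2, Idh2 and both malate dehydrogenases, whereas Cs, the Idh3 subunits and the succinyl-CoA synthetase subunits were not called. Idh2 had 3109 and 3618 CPM in LV and 1007, 987, 1296 and 1315 CPM in sSAN, without overlap (log2 fold change 1.57 ± 0.21 SE, adjusted p = 0.00306). Idh3a, the catalytic subunit of the NAD-dependent enzyme, had 467 and 495 CPM in LV and 673, 1001.5, 368 and 344 CPM in sSAN. There the LV libraries lay between the sSAN libraries of rats 1 and 2 and those of rats 3 and 4 (log2 fold change -0.29 ± 0.45 SE, adjusted p = 0.672).

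The LV over sSAN count depended on which libraries entered. With the rat as a block, which compares LV with sSAN within rats 3 and 4, 27 members were higher and 0 lower (15.5% of all genes higher), and the same counts were found in 70-day rats alone (15.7%). Cs was then higher in LV at a log2 fold change of 1.10 under the block, and Idh3a at 0.46. Without the sSAN library of rat 2 Idh3a was at 0.06. Without the LV library of rat 3, 7 members and 3.65% of all genes were higher, and without that of rat 4, 2 members and 2% of all genes, where the remaining LV library was assumed to vary like the sSAN libraries. Library totals in place of TMM factors gave 7, with 3.79% of all genes higher and 22.9% lower.

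Between LA and sSAN members were called in both directions in the main fit, those higher in LA no more often than among all genes. The counts changed with the libraries used. In LA, 2 members were higher than in sSAN and 7 lower (edgeR, adjusted p under 0.05), where 8.41% of all genes were higher and 11.8% lower, and the median of the members was -0.15. That median turned to 0.13 in 70-day rats alone, 0.011 without rat 2 and 0.034 with library totals, and was -0.022 without the sSAN library of rat 2. The 2 higher were Oxct1 (log2 fold change 0.43 ± 0.11 SE, adjusted p = 0.0224) and Mccc2, the carboxyltransferase subunit of methylcrotonyl-CoA carboxylase (log2 fold change 0.32 ± 0.08 SE, adjusted p = 0.0218). The 7 lower were Idh3a, Idh3b, Idh3g, Sucla2, Suclg1, Bckdha and Auh. Idh3a had 230.0, 235, 242 and 262 CPM in LA and 673, 1001.5, 368 and 344 CPM in sSAN, without overlap (log2 fold change -1.31 ± 0.32 SE, adjusted p = 0.0218). Auh, the methylglutaconyl-CoA hydratase of leucine breakdown, had 46.7, 52.2, 62.8 and 64.3 CPM in LA and 95.2, 112, 79.5 and 78.2 CPM in sSAN, again without overlap (log2 fold change -0.70 ± 0.15 SE, adjusted p = 0.0116). With the rat as a block 2 were higher and 3 lower (9.59% and 11.7% of all genes), in 59-day rats alone 0 were higher and 14 lower (9.17% and 13.5%), and in 70-day rats alone 2 were higher and 1, Idh3a, was lower (3.75% and 4.95%). Without the LA and sSAN libraries of rat 2, 0 members were called, with 4.42% of all genes higher and 5.50% lower. Without a single LA library 2 (rat 1), 1 (rat 2), 1 (rat 3) or 3 (rat 4) members were called, and 2 without the sSAN library of rat 1, with 4.23% to 6.50% of all genes higher and 6.75% to 8.17% lower.

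Against iSAN, LA was higher for 8 members and lower for 0 (edgeR, adjusted p under 0.05, 6.72% of all genes higher and 10.4% lower, 0 members lower at an unadjusted p under 0.05 or by DESeq2). They were Mccc1, Mccc2, Aldh6a1, Mdh1, Ivd, Idh2, Oxct1 and Bcat2, with log2 fold changes of 0.26 to 0.39. Mccc2 had 135, 149, 145 and 149.7 CPM in LA and 114, 104, 99.3 and 117 CPM in iSAN, and the 2 ranges did not overlap (log2 fold change 0.39 ± 0.08 SE, adjusted p = 0.00871). Mccc1 had 97.5, 91.6, 101 and 93.8 CPM in LA and 77.7, 75.9, 66.7 and 76.5 CPM in iSAN, again without overlap (log2 fold change 0.34 ± 0.07 SE, adjusted p = 0.00992). The count was 0 in 59-day rats alone, where only 0.0209% of all genes were higher and 0.0698% lower. It fell to 5 without rat 2 (4.25% of all genes higher) and to 4 with library totals (4.45%). With the rat as a block (8.58%) it was 7, and Oxct1 was not called. It was 5, 3, 2 and 2 without the LA library of rat 1, 2, 3 or 4, and 2 without the iSAN library of rat 3, with 4.19% to 4.59% of all genes higher in these fits.

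Within the right side of the heart, sSAN exceeded RA for 11 members and fell below it for 0 (edgeR, adjusted p under 0.05), where 13.8% of all genes were higher and 8.48% lower. At an unadjusted p under 0.05, 1 member was lower, and DESeq2 called 13 higher and 1 lower (14% and 10% of all genes). The median log2 fold change was 0.46 over the members and 0.02 over all genes. The members' median was 0.26 without the sSAN library of rat 2, 0.24 without rat 2, 0.24 with library totals and 0.10 in 70-day rats alone. The 11 were the 3 Idh3 subunits, Sucla2, Suclg1, Bckdha, Bckdhb, Auh, Bdh1, Pccb and Hibch. Idh3a had 673, 1001.5, 368 and 344 CPM in sSAN and 223, 203, 236 and 243 CPM in RA. All sSAN libraries were above all RA libraries, and rats 1 and 2 were far above rats 3 and 4 (log2 fold change 1.41 ± 0.33 SE, adjusted p = 0.0165). Sucla2, the ADP-forming beta subunit of succinyl-CoA synthetase, had 829.6, 1287, 479 and 531 CPM in sSAN and 372, 352, 364 and 423 CPM in RA, with the same division of the rats (log2 fold change 1.06 ± 0.29 SE, adjusted p = 0.0303). Auh had 95.2, 112, 79.5 and 78.2 CPM in sSAN and 53.4, 48.3, 56.6 and 60.8 CPM in RA, without overlap (log2 fold change 0.75 ± 0.13 SE, adjusted p = 0.0054). Bckdha had 179, 217, 144 and 148 CPM in sSAN and 107, 92.4, 102 and 119 CPM in RA, also without overlap (log2 fold change 0.72 ± 0.15 SE, adjusted p = 0.00924). Cs had 809, 1054, 388 and 482 CPM in sSAN and 398, 381, 399 and 440.4 CPM in RA, and of its 70-day sSAN libraries 1 lay within the RA range and 1 above it (log2 fold change 0.77 ± 0.28 SE, adjusted p = 0.0832). Idh2 (log2 fold change -0.17 ± 0.13 SE, adjusted p = 0.4), Mdh1 (log2 fold change -0.10 ± 0.13 SE, adjusted p = 0.616), Oxct1 (log2 fold change -0.14 ± 0.11 SE, adjusted p = 0.39) and Mccc2 (log2 fold change -0.10 ± 0.08 SE, adjusted p = 0.426) were not called. With the rat as a block 9 members were called, without Idh3g and Sucla2, where 12.9% of all genes were higher and 9.36% lower.

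Transcripts of fat cells were higher in sSAN than in RA and varied between the node libraries. Ucp1, the uncoupling protein of brown adipocytes, was at 952, 1549.8, 262 and 156 CPM in the sSAN libraries of rats 1 to 4, at 2.41, 729, 84.1 and 16.01 CPM in the iSAN libraries and at 0.145 CPM or less in LV, LA and RA. The sSAN libraries with the most Ucp1 also had the most Idh3a, Sucla2 and Cs and the least Bdh1, and of the iSAN libraries only that of rat 2 had a Ucp1 level above those of the 70-day sSAN libraries. Adipoq, made by fat cells, was at 930.3, 1015, 261 and 203 CPM in sSAN and 38.4, 662, 259 and 376 CPM in iSAN, where rat 4 had more Adipoq than rat 3 and less Idh3a. Of the brown adipocyte markers Elovl3 was at 0 in every region, and Cidea was at 219.6, 202, 183 and 239.7 CPM in RA, where Ucp1 was near 0. The mitochondrial genome took 28.2%, 40.8%, 31.7% and 24.1% of the counts in the sSAN libraries, against 16.4% to 18.8% in RA. Marker sums of other cells of the node pieces also differed from RA. The smooth muscle markers summed to 317 to 665 CPM in sSAN and 55.4 to 115 CPM in RA, the Schwann cell markers to 65.3 to 536 CPM in sSAN and 11.99 to 18.9 CPM in RA, and the fibroblast markers to 2720.1 to 3894 CPM in sSAN and 1657 to 1790 CPM in RA. The atrial myocyte markers summed to 7710 to 29929 CPM in sSAN and 46605 to 54172 CPM in RA. The part of these cells in the member differences was not tested. Without the libraries of rat 2, 6 members were called in sSAN over RA (7.16% of all genes higher), and Idh3a was at a log2 fold change of 0.97. Without the sSAN library of rat 2 alone 11 were called, with 10.6% of all genes higher, and without that of rat 1 alone 7, with 9.71% of all genes higher. Leaving out the RA library of rat 1, 2, 3 or 4 gave 6, 5, 7 and 6, with 8.27% to 9.14% of all genes higher. With library totals 8 were higher and 1, Mccc1, was lower (8.48% and 14.8% of all genes).

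**Figure D3:**
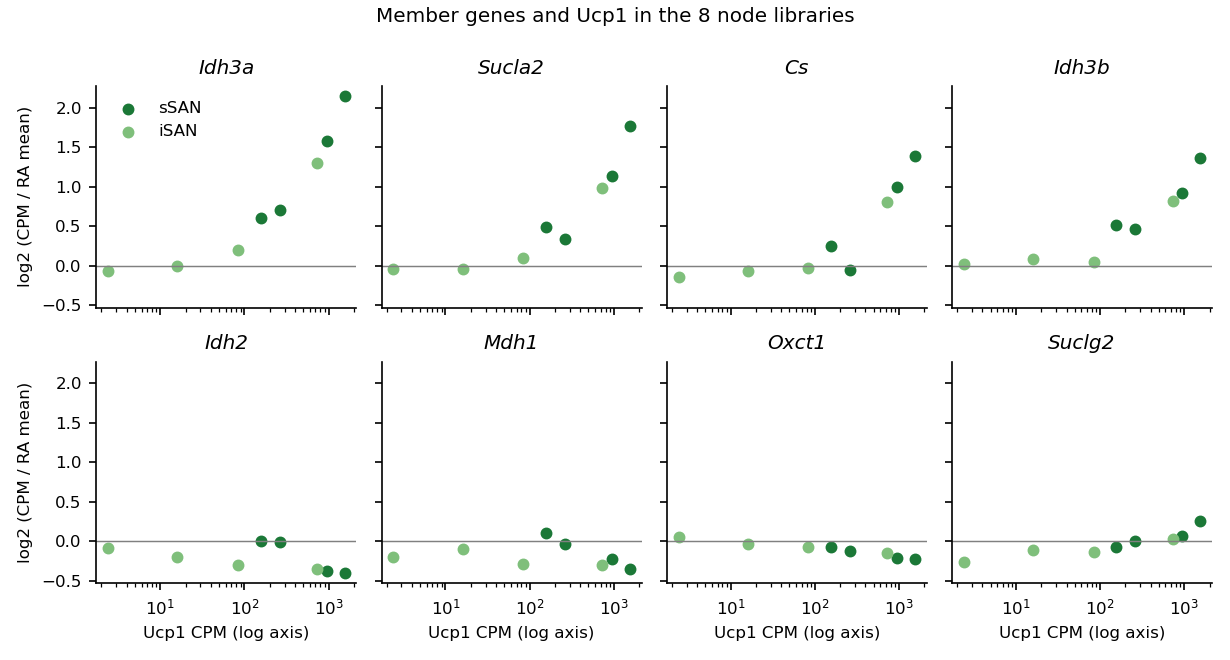
Levels of 8 members in the 4 sSAN (dark) and 4 iSAN (light) libraries, as log2 of CPM over the RA mean (vertical axis), against Ucp1 CPM in the same library (log axis). Idh3a, Sucla2, Cs and Idh3b are highest in the 3 libraries with over 700 CPM of Ucp1, whereas Idh2, Mdh1 and Oxct1 are at or below the RA mean in those libraries.

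The sSAN over RA difference was compared between the younger and the older rats. In 59-day rats alone 16 members were higher in sSAN and 0 lower (14.2% of all genes higher), and in 70-day rats alone 4 were higher (Idh3a, Idh3b, Auh and Bdh1) and 0 lower (6.52% of all genes higher). In a fit with region, age and their interaction, added after seeing the data, the difference between ages passed for 4 members of 28 (edgeR, adjusted p under 0.05), where 2.17% of all genes passed. For Idh3a the log2 fold change of sSAN over RA was 1.99 in 59-day rats and 0.56 in 70-day rats, fitted apart (difference in the joint fit 1.41, adjusted p = 0.0232). The other 3 were Cs (difference 1.21, adjusted p = 0.0293), Dld, the lipoamide dehydrogenase shared by the oxoacid dehydrogenase complexes (0.84, adjusted p = 0.0404), and Hibch (0.75, adjusted p = 0.0421). For Bdh1 the difference was -0.24 (adjusted p = 0.80). At an unadjusted p under 0.05 there were 17 members, 22 had a positive difference, and the median was 0.56. The share of all genes at that unadjusted p was not counted, so the 17 cannot be set against it. In iSAN over RA the same interaction passed for 0 of 14066 genes and in LA over RA for 3 of 13904, none of them members, and 0 members had an unadjusted p under 0.05 in either. The difference was nonetheless positive for 26 of 28 members in iSAN over RA, with a median of 0.24. In LA over RA it was positive for 7 of 28, with a median of -0.06. The ages were also different rats, so age cannot be told apart from the individual rats and their pieces, including the Ucp1 levels above.

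Few members differed between iSAN and RA. Over RA, 2 members were higher in iSAN and 1 lower (edgeR, adjusted p under 0.05), where 10.4% of all genes were higher and 6.16% lower. Hibch was higher (log2 fold change 0.35 ± 0.09 SE, adjusted p = 0.0277), at 41.4, 57.5, 46.0 and 49.9 CPM in iSAN and 38.0, 37.1, 39.6 and 40.5 CPM in RA, without overlap. Mccc1 was lower, at 77.7, 75.9, 66.7 and 76.5 CPM in iSAN and 92.0, 92.2, 102 and 106 CPM in RA, without overlap (log2 fold change -0.37 ± 0.08 SE, adjusted p = 0.00951). The other higher member was Bdh1, with 17.8, 10.3, 15.0 and 12.7 CPM in iSAN and 8.69, 4.92, 8.97 and 5.85 CPM in RA. Hibch was not called without any 1 of the 4 RA libraries or without the iSAN library of rat 4, and Bdh1 was not called without the RA library of rat 4 or the iSAN library of rat 3. Mccc1 was called in each of these fits, and in 59-day rats alone 0 members were called, with 0.184% of all genes higher and 0.0353% lower. Between the nodes themselves, 0 members were higher and 0 lower in sSAN than in iSAN by edgeR, where 0% of all genes were higher and 0.00699% lower. DESeq2 also called 0 members, where 0.42% of all genes were higher and 0.491% lower. At an unadjusted p under 0.05 there were 12 members, all higher in sSAN, and the share of all genes at that p was not counted. The median of the members was 0.35, and the widest difference was that of Idh3a (log2 fold change 0.92 ± 0.43 SE, adjusted p = 0.521).

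Of the ketone enzymes Bdh1 separated the regions most. It had 167 and 97.5 CPM in LV, 13.4, 18.4, 16.5 and 17.5 in LA, 11.5, 11.2, 13.7 and 15.6 in sSAN, 17.8, 10.3, 15.0 and 12.7 in iSAN and 8.69, 4.92, 8.97 and 5.85 in RA. Every library of the other 4 regions lay above every RA library, LA, sSAN and iSAN overlapped each other, and LV lay far above all. The level in RA rested on 102 to 186 counts per library. Bdh1 was higher in LV than in RA (log2 fold change 4.21 ± 0.33 SE, adjusted p = 0.000325) and higher in LV than in LA (log2 fold change 3.01 ± 0.22 SE, adjusted p = 7.79e-05). It was also higher than in RA in LA (log2 fold change 1.20 ± 0.19 SE, adjusted p = 0.0025), in sSAN (log2 fold change 0.88 ± 0.21 SE, adjusted p = 0.0174) and in iSAN (log2 fold change 1.00 ± 0.23 SE, adjusted p = 0.0162). The LV libraries differed from each other, at 167 CPM in rat 3 and 97.5 CPM in rat 4. Oxct1 had 3209 and 3502 CPM in LV, 1721, 1815, 1912 and 1835 in LA, 1296, 1278, 1376 and 1427 in sSAN, 1559, 1349, 1429 and 1463 in iSAN and 1518, 1342, 1625 and 1508 in RA. LV stood above LA and LA above the other 3 regions, which overlapped. Acat1, the thiolase that splits acetoacetyl-CoA, was higher in LV than in RA (log2 fold change 0.84 ± 0.09 SE, adjusted p = 2.64e-05), and was not called in LA (log2 fold change 0.23 ± 0.08 SE, adjusted p = 0.11), sSAN (log2 fold change 0.32 ± 0.14 SE, adjusted p = 0.129) or iSAN (log2 fold change -0.04 ± 0.11 SE, adjusted p = 0.839) over RA.

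**Figure D4:**
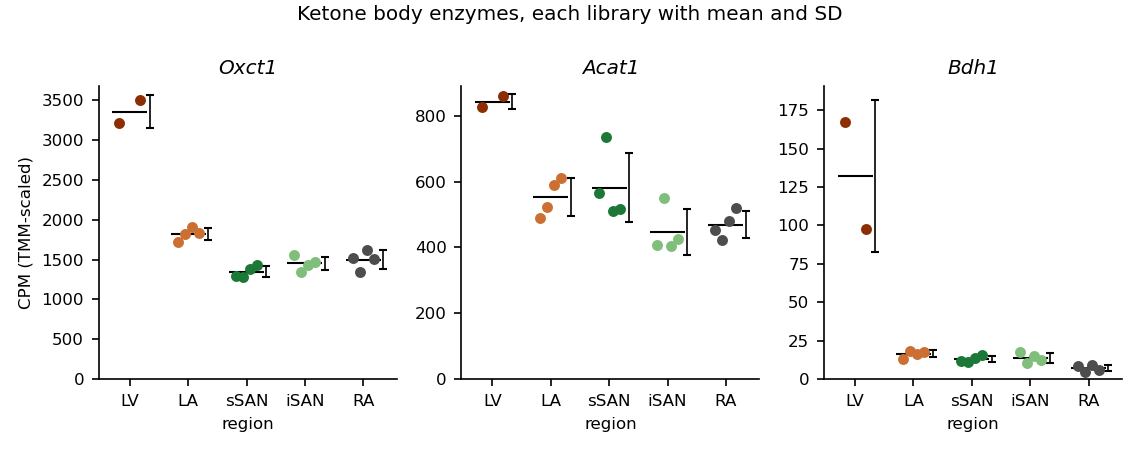
CPM of Oxct1, Acat1 and Bdh1 in each library of LV, LA, sSAN, iSAN and RA (points), with the mean (line) and SD (bar) of each region. Each vertical axis starts at 0. Bdh1 is at 97.5 and 167 CPM in LV and below 20 CPM in all other libraries.

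Subunits of the same enzyme did not always move together. The NAD-dependent isocitrate dehydrogenase is built of Idh3a, Idh3b and Idh3g, and in sSAN over RA the log2 fold changes were 1.41, 0.87 and 0.67, all called, while the separate NADP enzyme Idh2 was at -0.17. In LV over RA all 4 were called, at 1.08, 1.56 and 0.97 for the Idh3 subunits and 1.36 for Idh2. The branched-chain dehydrogenase subunits were higher in LV than in RA together, at 1.37 (Bckdha), 1.61 (Bckdhb) and 1.37 (Dbt), and in sSAN over RA at 0.72 and 0.63, both called, and 0.43, not called. Of methylcrotonyl-CoA carboxylase, Mccc2 was higher in LV than in RA (log2 fold change 0.88 ± 0.09 SE, adjusted p = 2.84e-05), whereas Mccc1 was at 0.22, and at -0.33 with library totals. Of propionyl-CoA carboxylase, Pcca was at 0.99 and Pccb at 0.33 in LV over RA, both called (Pccb at -0.21 with library totals), and in sSAN over RA Pccb was called (0.55) and Pcca was not (0.29). These differences between subunits were not tested.

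Succinyl-CoA synthetase joins the alpha subunit Suclg1 to the ADP-forming beta subunit Sucla2 or the GTP-forming beta subunit Suclg2. The ratio of Sucla2 to Suclg2 counts within a library, which no scaling between libraries can move, was 2.91 and 2.45 in LV, 1.65, 1.68, 1.77 and 1.77 in LA, 3.83, 5.20, 2.31 and 2.70 in sSAN, 2.13, 3.54, 2.14 and 1.91 in iSAN and 1.80, 1.81, 1.73 and 1.95 in RA. Every LV and sSAN library was above every RA library, and LA and iSAN overlapped RA. The mean log2 ratio exceeded that of RA by 0.55 in LV, 0.87 in sSAN and 0.37 in iSAN and was lower by 0.09 in LA (LA minus RA, -0.09). Exact two-sided permutation tests over libraries gave p = 0.133 for LV, the smallest that 2 against 4 libraries allow, p = 0.0857 for LA, p = 0.0286 for sSAN, the smallest that 4 against 4 allow, and p = 0.0571 for iSAN. Adjusted over the 4 comparisons these became 0.133 for LV and 0.114 for the others, and none passed 0.05. The sSAN test, already at its smallest p, could have passed after adjustment only if the LA and iSAN tests had also reached theirs. Its failure therefore says little about the sSAN ratio. In sSAN over RA Suclg2 itself was at 216, 247, 207 and 197 CPM in sSAN and 206, 194, 209.9 and 217 CPM in RA (log2 fold change 0.08 ± 0.10 SE, adjusted p = 0.581), and its sign changed with the libraries and scaling used. The excess in the sSAN ratio was 0.44 in 70-day rats alone. The excess in the iSAN ratio was 0.17 without the iSAN library of rat 2 and 0.14 in 70-day rats alone.

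**Figure D5:**
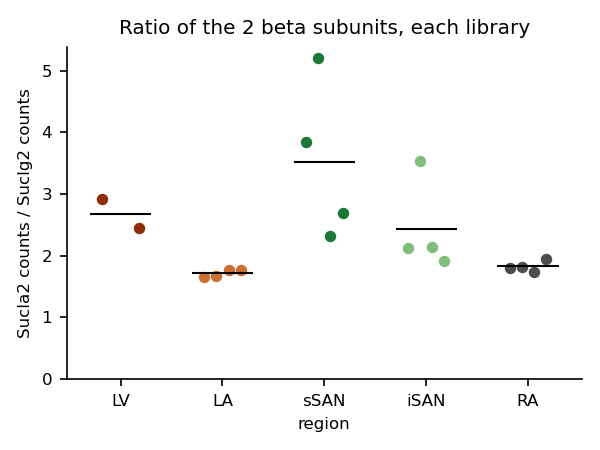
Ratio of Sucla2 to Suclg2 counts in each library (points) of LV, LA, sSAN, iSAN and RA, with the mean of each region (line) and the axis starting at 0. The ratio is 2.31 to 5.20 in sSAN and 1.73 to 1.95 in RA.

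Other genes of the same pathways were counted from a separate list of 38 tested genes. In LV over RA 27 were higher and 4 lower, read against the same 23.5% and 22.7% of all genes. Those with the smallest adjusted p were Pdk1, a kinase that inhibits pyruvate dehydrogenase (log2 fold change 1.94 ± 0.08 SE, adjusted p = 3.11e-08), Sdhb, the iron-sulfur subunit of succinate dehydrogenase (log2 fold change 1.64 ± 0.08 SE, adjusted p = 1.51e-07), and Idh1, the cytosolic isocitrate dehydrogenase (log2 fold change 1.38 ± 0.08 SE, adjusted p = 4.00e-07). In LA over RA 1 was higher, Mmab (log2 fold change 0.35 ± 0.09 SE, adjusted p = 0.0341), and 1 lower, Pdp1 (log2 fold change -0.31 ± 0.07 SE, adjusted p = 0.0226). Of all genes, 4.37% were higher and 4.26% lower in LA over RA. In sSAN over RA 15 were higher and 0 lower, led by Bcat1, the cytosolic branched-chain aminotransferase (log2 fold change 0.72 ± 0.11 SE, adjusted p = 0.00272), the pyruvate carrier subunit Mpc2 (log2 fold change 0.51 ± 0.09 SE, adjusted p = 0.00518) and Aacs, which activates acetoacetate in the cytosol for lipid synthesis (log2 fold change 2.55 ± 0.43 SE, adjusted p = 0.00534). The sSAN over RA fit called 13.8% of all genes higher and 8.48% lower. In iSAN over RA 3 were higher and 1 lower (10.4% and 6.16% of all genes). The LV over LA counts were 26 and 4 (22.1% and 21.1% of all genes), LV over sSAN 13 and 2 (11.9% and 10.8%), and LV over iSAN 27 and 1 (20.3% and 18.8%). LA over sSAN had 1 and 8 (8.41% and 11.8%), LA over iSAN 3 and 4 (6.72% and 10.4%), and sSAN over iSAN 0 and 0 (0% and 0.00699%).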

How the data were processed

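The authors sequenced paired-end libraries of total RNA, removed reads with adapters, undetermined bases or low quality, aligned the rest with HISAT2 and counted them with HTSeq 0.6.1, per the study's methods and the submitters' processing notes. Whether counting used strand is not given in the sources used here. The deposited table holds raw counts per Ensembl gene in 1 column per library, FPKM values that the authors computed from them, and gene lengths. For 24 of the 28 members the FPKM equalled the count over length and library total within 1%. The rest were Idh2, Mccc2, Hibch and Pcca, where the computed value was 0.84, 0.65, 0.84 and 0.97 of the deposited FPKM. Counts were tested, and FPKM served only to compare levels between genes. The table's 72 further columns of normalized values were not used, nor were the authors' own fold changes and p-values.

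Regions were compared 2 at a time with the quasi-likelihood test of edgeR 4.0.16 in R 4.3.3 (TMM scaling, filterByExpr on the regions compared, robust dispersion), with Benjamini-Hochberg adjustment over all genes tested and calls at an adjusted p under 0.05. All 28 members passed the filter on low counts in all 10 comparisons. CPM values use TMM factors over the 18 libraries. The ratio of Sucla2 to Suclg2 counts was tested with exact permutation over libraries. DESeq2 1.42.0 was an alternative, as were RLE size factors, no filter, all regions in 1 fit, the ages alone, leaving out rat 2, leaving out each library, and omission of the mitochondrial genome. Library totals and the age interaction were added after seeing the data.

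Libraries whose titles share an ending were taken to come from the same of 4 rats, since each ending has 1 age and the study's methods name 4 rat hearts, though no label states it. Residuals of such libraries over 15248 genes correlated at -0.02 to 0.45 in 32 pairs, 6 of them under 0.10. The lowest were LV with sSAN of rat 3 (-0.02) and sSAN with iSAN of rat 1 (-0.016). The rat entered an alternative fit as a replicate block. Full statistics were given to at most 4 called members per direction and comparison, those with the smallest adjusted p, and to subunits of the same enzyme, while any member could be named with its values. Other members with statistics were singled out after their values were seen. The members and lists were chosen with earlier results of these data known. P-values of the main fits measure the spread between the libraries of each region, without pairing by rat. They do not measure the spread of the regional difference within a rat, which the block fits use.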

Additional observations from a re-analysis of the deposited data

Results flagged for a closer look

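Among the 112 sets of 4 libraries examined (28 members in LA, sSAN, iSAN and RA), 11 had a library that stood far from the other 3 by Dixon's criterion. Chance gives about 1 in 20 for independent sets, but the members share the same libraries, so these sets are not independent. The share of all genes flagged by this criterion was not counted, so the 11 are not read as an excess among the members. Of the 11, 7 were the iSAN library of rat 2, high for Cs at 708 CPM, Idh3a at 559 CPM, Idh3b at 388 CPM, Idh3g at 371 CPM, Dld at 473 CPM, Sucla2 at 747 CPM and Acat1 at 552 CPM. That library also held 729 CPM of Ucp1, against 84.1 CPM or less in the other iSAN libraries, and the part of fat transcripts was not tested. In iSAN the library of rat 3 was low for Mccc1, at 66.7 CPM. In RA the library of rat 2 was low for Mdh2, at 742 CPM, and for Pcca, at 74.2 CPM, and that of rat 3 was high for Bckdhb, at 110 CPM.

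The log2 fold change of sSAN over RA differed between 59-day and 70-day rats for 4 members by the interaction test in edgeR. The difference was 1.41 for Idh3a, 1.21 for Cs, 0.84 for Dld and 0.75 for Hibch.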

How the results depend on the processing

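The LV counts over RA and over LA stayed within 1.5 times of 27 under every alternative run. Elsewhere counts of called members moved by more than that, and the cause was not tested beyond the fewer libraries that some alternatives hold. LA over RA, 4 members, became 8 with DESeq2, 2 with all 5 regions in 1 fit, 13 with the replicate block, 0 in 59-day and 1 in 70-day rats alone. In the same order, 5.1%, 2.09%, 8.97%, 2.21% and 1.38% of all genes were higher in LA. LV over sSAN, 14, became 27 with the block, 27 in 70-day rats alone and 7 with library totals. LA over sSAN, 9, became 5 with the block, 14 in 59-day and 3 in 70-day rats alone and 0 without rat 2. LA over iSAN, 8, became 0 in 59-day rats alone, 5 without rat 2 and 4 with library totals. For sSAN over RA, 11 became 4 in 70-day rats alone and 6 without rat 2, and for iSAN over RA, 3 became 0 in 59-day rats alone. Leaving out each library in turn gave 2 to 20 for LV over sSAN, 1 to 11 for LA over sSAN, 2 to 11 for LA over iSAN, 5 to 15 for sSAN over RA, 3 to 6 for LA over RA and 1 to 3 for iSAN over RA. The share of all genes called moved as well, in sSAN over RA between 8.27% and 14.3% higher as single libraries were left out. The block moved no other count by over 1.5 times. Of 1316 alternative values for the 82 differences that the text names, 1148 kept direction and call, 127 kept direction but lost the call, 22 gained it and 19 changed sign. In sSAN over RA, Suclg2 (0.08 in the report) was -0.086 in 70-day rats alone, -0.035 without rat 2, -0.12 with library totals and -0.0092 to 0.13 with each library left out. In LV over sSAN, Idh3a (-0.29) was 0.46 with the block, 0.43 in 70-day rats alone, 0.057 without rat 2 and -0.49 to 0.057 with each library left out. With library totals LV over RA became -0.33 for Mccc1, -0.21 for Pccb and -0.088 for Suclg2, LV over LA -0.46 and LV over iSAN -0.38 for Pccb. In LV over LA Pccb (0.08) was -0.049 with the block, -0.053 in 70-day rats alone and -0.037 to 0.18 with each library left out. In iSAN over RA Acat1 (-0.04) was 0.14 in 59-day rats alone and -0.15 to 0.007 with each library left out. The ratio of Sucla2 to Suclg2 kept its direction in every setting, at 0.66 to 1.05 in sSAN and 0.17 to 0.47 in iSAN with each library left out. It passed no adjusted test in any setting. The permutation test for LV could not pass, as its smallest possible p was 0.133. That for sSAN was at its smallest p and could pass after adjustment only if those for LA and iSAN also reached theirs. Settings with fewer libraries raise this smallest p, so their failures say little. With 2 to 4 libraries a region, small differences could not be resolved.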
